A study of Mus musculus with 18 samples.

Results

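The 10 genes described here are *Slc1a2*, *Slc1a3*, *Glul*, *Aqp4*, *Gja1*, *Slc4a4*, *Aldoc*, *Aldh1l1*, *Gfap* and *S100b*, transporters, channels, enzymes and structural proteins by which astrocytes are commonly recognised. They are the genes named in a list of astrocyte genes, with no threshold on their values, and all 10 were among the 15329 genes of the deposited table. Hippocampal RNA from 18 C57BL/6J mice aged 8 to 10 weeks was sequenced in 6 groups of 3, each mouse giving 1 library, to ask how training in the Morris water maze and loss of cyclin Y (*Ccny*) alter hippocampal transcripts. Wild-type mice were untrained (WT_Basal), had completed original learning of the hidden platform's place (WT_OL), or had gone on to reversal learning, in which the platform was moved (WT_RL). *Ccny* knockout mice formed the corresponding groups KO_Basal, KO_OL and KO_RL. The labels name no cell type or promoter that limits the knockout, and no group separates astrocytes from other cells. Levels are given as CPM, the usual read count scaled to library size, after the authors' TMM normalization, a scaling that makes libraries of different depth and composition comparable.

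Astrocytes take up the glutamate that neurons release. The transporters GLT-1 and GLAST, encoded by *Slc1a2* and *Slc1a3*, carry it into the cell, and glutamine synthetase, encoded by *Glul*, converts it into glutamine that returns to neurons. The same cells move water through aquaporin-4 (*Aqp4*), are joined to each other by the gap junction protein connexin 43 (*Gja1*), and carry bicarbonate and sodium through the cotransporter NBCe1 (*Slc4a4*). *Aldoc* encodes aldolase C of glycolysis, *Aldh1l1* an enzyme of folate metabolism, *Gfap* an intermediate filament protein and *S100b* a calcium-binding protein, and all of them serve as astrocyte markers. In RNA of whole tissue, fewer astrocytes and less RNA per astrocyte cannot be told apart.

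The 250 bases before the transcription start are shown for the 3 genes called higher (adjusted p under 0.05, limma) after training in wild-type mice. They are also shown for *S100b*, which was called lower in trained KO mice. *Aqp4* was called lower in those mice too, and the promoters used held no entry for it. The sequences are from RefSeq on GRCm38.p6, 5′ to 3′ on the strand of the gene, and capitals mark a GC box (GGGCGG). The *Glul* and *S100b* windows, chr1:153899679-153899928 and chr10:76253586-76253835, both on the plus strand, end beside the start of the gene in GENCODE. The *Slc1a2* and *Aldh1l1* windows, chr2:102706188-102706437 and chr6:90550543-90550792, also on the plus strand, belong to transcripts that start inside the gene as GENCODE draws it, 47779 and 64366 bases from its first base.
Slc1a2: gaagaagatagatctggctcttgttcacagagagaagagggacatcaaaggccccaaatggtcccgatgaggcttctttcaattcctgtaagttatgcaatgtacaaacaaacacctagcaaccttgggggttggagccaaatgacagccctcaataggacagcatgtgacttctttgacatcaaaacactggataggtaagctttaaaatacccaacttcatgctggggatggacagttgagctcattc
Glul: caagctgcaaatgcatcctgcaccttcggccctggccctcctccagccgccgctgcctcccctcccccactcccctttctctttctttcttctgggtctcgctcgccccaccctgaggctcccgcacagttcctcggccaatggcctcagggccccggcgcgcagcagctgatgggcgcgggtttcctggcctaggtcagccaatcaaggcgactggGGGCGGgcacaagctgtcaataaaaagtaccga
Aldh1l1: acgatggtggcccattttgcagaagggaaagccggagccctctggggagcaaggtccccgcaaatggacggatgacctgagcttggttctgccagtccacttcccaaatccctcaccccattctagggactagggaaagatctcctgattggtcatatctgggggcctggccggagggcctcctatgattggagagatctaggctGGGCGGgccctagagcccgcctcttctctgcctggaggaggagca
S100b: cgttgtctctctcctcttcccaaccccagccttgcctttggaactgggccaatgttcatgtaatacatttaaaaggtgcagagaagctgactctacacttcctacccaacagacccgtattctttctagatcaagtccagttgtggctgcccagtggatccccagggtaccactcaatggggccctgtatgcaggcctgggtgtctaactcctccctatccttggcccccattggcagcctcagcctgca

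These windows were searched on both strands for the TATA box (TATAAA), the GC box, an E-box (CACGTG), the cAMP response element (TGACGTCA), the AP-1 site (TGANTCA) and the glucocorticoid receptor half-site (TGTTCT). *Glul* held a GC box 33 bases and *Aldh1l1* a GC box 45 bases before the start, and 32.7% of 32851 promoters of the same length held one. *Slc1a2* and *S100b* held none of the motifs searched. The TATA box was in 12.4% of all promoters, the E-box in 6.02%, the cAMP response element in 1.55%, the AP-1 site in 6.75% and the half-site in 16.1%. The *Slc1a2* window was poorer in G and C (44.8%) than the median promoter (52.4%), and those of *Glul* (64.8%) and *Aldh1l1* (59.6%) were richer. A match describes the letters only and is not evidence of binding.

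The libraries held between 29248557 and 37915576 reads on listed genes. *Ccny*, the gene targeted in the knockout, was at 106.6 to 158.5 CPM in the 9 WT libraries and at 73.96 to 95.78 CPM in the 9 KO libraries. These ranges do not overlap, yet reads on *Ccny* remained in every KO library, and their source was not tested. The 10 genes together took 0.71% to 1.10% of the normalized reads. Replicate 2 of WT_OL and replicate 2 of WT_RL stood apart: 9 and 10 of the 10 genes lay above their group's mean there, by an average of 0.18 on the log2 scale in each.

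All 10 genes were detected in every library, with mean CPM between the 77.1 percentile of all genes for *Aldh1l1* and the 100 percentile for *Slc1a2*. By CPM per kilobase of the longest protein-coding transcript, the order of the mean levels over the 18 libraries was *Glul* (640 CPM per kb), *Aldoc* (346), *Slc1a2* (281), *Slc1a3* (208), *Gfap* (178), *S100b* (96.5), *Gja1* (81.7), *Aqp4* (38.0), *Slc4a4* (29.3) and *Aldh1l1* (16.8). *Glul* exceeded *Aldoc* and *Gfap* exceeded *S100b* in 18 of 18 libraries. The ranges of *Aldoc* and *Slc1a2* overlapped, with *Aldoc* higher in 15 libraries, and so did those of *Slc1a2* and *Slc1a3*, with *Slc1a2* higher in 15. *S100b* was above *Gja1* in 14 libraries, *Slc1a3* above *Gfap* in 17 and *Slc4a4* above *Aldh1l1* in 17. Without regard to length, *Slc1a2* had the highest level at a mean of 3253 CPM, and *Aldh1l1* the lowest at 70.3 CPM. The highest library exceeded the lowest by 1.96-fold for *S100b* and by 1.25-fold for *Gja1*, the ends of the range over the 10 genes.

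**Figure D1:**
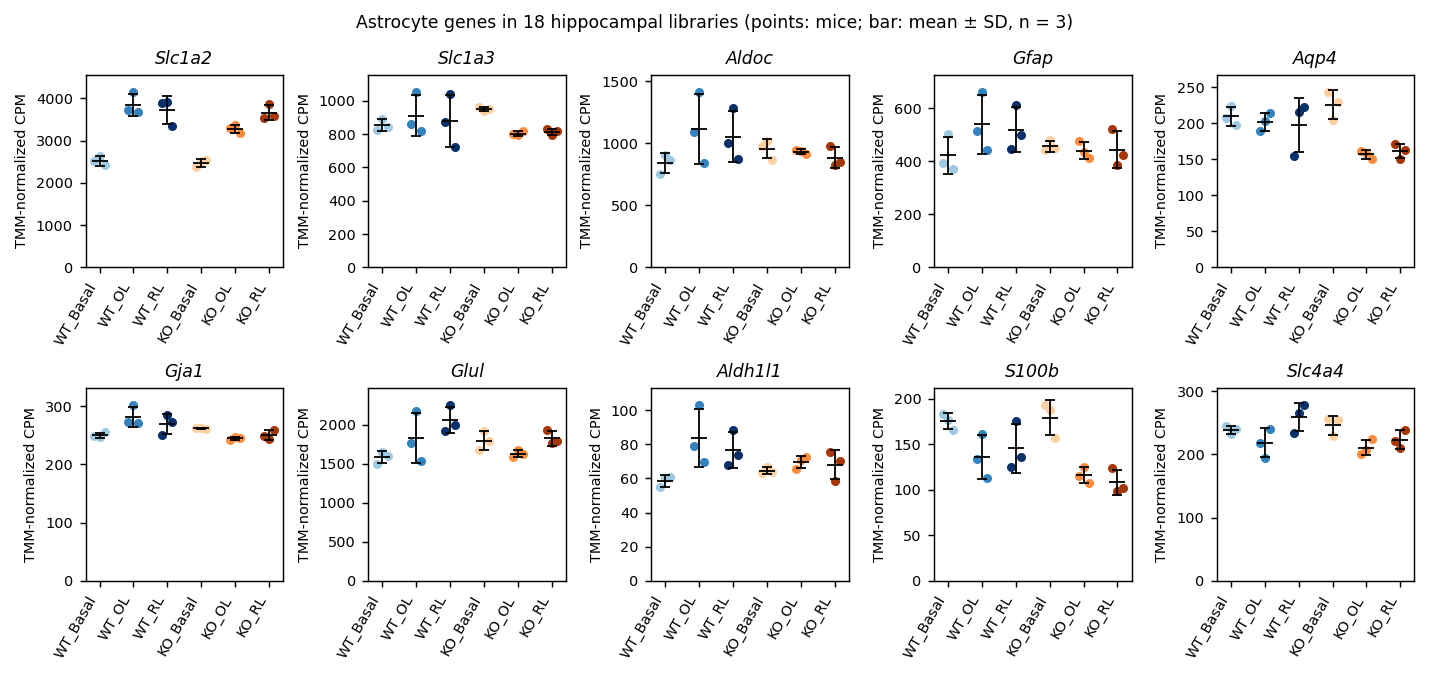
TMM-normalized CPM (linear axis from 0) of each astrocyte gene in the 18 libraries. Points are mice and black bars the mean ± SD of the 3 mice of a group; *Slc1a2* is higher in every trained group than in the untrained mice of the same genotype.

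*Slc1a2* was the only member of the 10 called higher (adjusted p under 0.05, limma) in all 4 comparisons of trained with untrained mice. WT_Basal libraries held 2508, 2645 and 2416 CPM, WT_OL libraries 3736, 4150 and 3672 CPM and WT_RL libraries 3900, 3923 and 3339 CPM. KO_Basal libraries held 2367, 2521 and 2532 CPM, KO_OL libraries 3311, 3360 and 3174 CPM and KO_RL libraries 3529, 3876 and 3587 CPM. All trained mice lay above all untrained mice, in both genotypes. The log2 fold change of CPM + 1, tested with limma over all genes, was 0.61 ± 0.10 (SE, adjusted p = 0.00228) after original learning and 0.56 ± 0.10 (adjusted p = 0.00237) after reversal learning in WT mice. In KO mice it was 0.41 ± 0.10 (adjusted p = 0.00964) and 0.57 ± 0.10 (adjusted p = 0.00119). These correspond to 1.53, 1.47, 1.33 and 1.48-fold. A fit to the 6 libraries of WT_OL and WT_Basal alone gave the same fold change with an adjusted p of 0.105. *Slc1a2* lies on the plus strand at chr2:102658659-102790784 (GRCm38), and an exon of the antisense gene Gm13872 overlaps it. The sources do not state whether the counting used strand.

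*Slc1a3*, the other glutamate transporter, was called in none of these comparisons. Its group means were 853 ± 34.8 CPM (SD, n = 3) in WT_Basal, 910 ± 124 in WT_OL and 878 ± 159 in WT_RL, with overlapping mice. In KO mice it stood at 961, 937 and 951 CPM untrained, 798, 792 and 818 CPM after original learning and 831, 795 and 816 CPM after reversal learning, the trained mice all below the untrained ones. The differences in KO mice, -0.24 ± 0.11 and -0.22 ± 0.11 on the log2 scale, did not pass the test over all genes (limma, adjusted p = 0.127 and 0.162). With the libraries of the compared groups alone they did (adjusted p = 0.0147 and 0.0315). *Slc1a3* lies on the minus strand at chr15:8634124-8710764.

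*Glul*, glutamine synthetase, rose in WT_RL against WT_Basal. Its levels were 1498, 1646 and 1603 CPM in WT_Basal, 1771, 2176 and 1537 CPM in WT_OL and 1926, 2250 and 2001 CPM in WT_RL. Every WT_RL mouse was above every WT_Basal mouse, while 1 WT_OL mouse lay within the WT_Basal range. The change was 0.38 ± 0.12 (adjusted p = 0.035, limma) after reversal learning and 0.19 ± 0.12 (adjusted p = 0.305) after original learning. KO libraries held 1677, 1927 and 1790 CPM untrained, 1593, 1680 and 1623 CPM after original learning and 1935, 1762 and 1787 CPM after reversal learning, and neither difference passed (adjusted p = 0.41 and 0.901). The WT_RL call was lost after a correction for GC content (adjusted p = 0.0767), with the 6 compared libraries alone (0.0793), and without any 1 of WT_Basal replicates 1 (0.127), 2 (0.0568) and 3 (0.088) or WT_RL replicates 2 (0.132) and 3 (0.0524). *Glul* lies on the plus strand at chr1:153899944-153909723, and shares exonic bases with *Mir8114* on its own strand and with *Teddm2* on the other.

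*Aqp4*, the water channel, fell in trained KO mice. KO_Basal libraries held 243, 205 and 230 CPM, KO_OL libraries 162, 159 and 150 CPM and KO_RL libraries 171, 151 and 163 CPM. The trained and untrained mice did not overlap. The fall was -0.52 ± 0.11 (adjusted p = 0.00386, limma) after original learning and -0.48 ± 0.11 (adjusted p = 0.00616) after reversal learning, 0.698 and 0.717 of the untrained level. WT libraries held 207, 224 and 197 CPM, 189, 203 and 214 CPM and 154, 215 and 223 CPM in WT_Basal, WT_OL and WT_RL, and these groups overlapped. The WT differences were -0.05 ± 0.11 (adjusted p = 0.814) and -0.10 ± 0.11 (adjusted p = 0.585). The *Aqp4* transcript has a GC content of 41.4%, the lowest of the 10, and correction for GC content reduced the KO differences to -0.30 and -0.29 and ended both calls (adjusted p = 0.117 and 0.121). In KO_OL against KO_Basal that correction called 2316 of all genes in place of 3600.

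*Gja1*, connexin 43, differed little between groups, and its replicates lay close together. In WT mice it was at 249, 247 and 255 CPM in WT_Basal, 272, 302 and 271 CPM in WT_OL and 251, 285 and 274 CPM in WT_RL. In KO mice it was at 263, 262 and 261 CPM in KO_Basal, 242, 247 and 245 CPM in KO_OL and 248, 243 and 260 CPM in KO_RL. WT_OL mice were all above WT_Basal and KO_OL mice all below KO_Basal. Neither difference passed over all genes, 0.17 ± 0.062 (adjusted p = 0.0981, limma) in WT and -0.10 ± 0.062 (adjusted p = 0.273) in KO. *Slc4a4*, the bicarbonate cotransporter, ranged from 195 to 277 CPM over all libraries. Its largest difference between trained and untrained mice was -0.22 ± 0.086 in KO_OL against KO_Basal (adjusted p = 0.0696), where the groups did not overlap. With the 6 compared libraries alone its adjusted p was 0.0266. *Gja1* lies at chr10:56377330-56402513 and *Slc4a4* at chr5:88886818-89239653, both on the plus strand.

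*S100b* was the member with the largest fall in KO mice. KO_Basal libraries held 193, 188 and 157 CPM, KO_OL libraries 116, 125 and 107 CPM and KO_RL libraries 124, 98.4 and 102 CPM, the trained mice all below the untrained. The fall was -0.62 ± 0.14 (adjusted p = 0.00407, limma) after original learning and -0.73 ± 0.14 (adjusted p = 0.00145) after reversal learning, 0.649 and 0.604 of the untrained level. In WT mice the levels were 184, 177 and 166 CPM untrained, 134, 161 and 113 CPM after original and 124, 176 and 136 CPM after reversal learning. The WT_OL mice were all below the WT_Basal mice, yet the difference of -0.38 ± 0.14 had an adjusted p of 0.091. Without replicate 2 of WT_OL it was -0.50 (adjusted p = 0.0401), and without replicate 2 of WT_RL as well the adjusted p was 0.0168. After reversal learning 1 of 3 WT mice lay within the WT_Basal range, and the difference was -0.28 ± 0.14 (adjusted p = 0.173), or -0.43 (adjusted p = 0.0185) without both replicates 2. *S100b* is at chr10:76253853-76261159 on the plus strand, and no other annotated exon overlaps its exons.

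*Aldh1l1* rose in WT_OL against WT_Basal. WT_Basal libraries held 54.7, 60.1 and 60.9 CPM, WT_OL libraries 78.9, 103 and 69.8 CPM and WT_RL libraries 68.0, 88.3 and 73.9 CPM. Every trained WT mouse was above every untrained one. The change was 0.49 ± 0.12 (adjusted p = 0.0202, limma) after original learning and 0.38 ± 0.12 (adjusted p = 0.0502) after reversal learning. Replicate 2 of WT_OL carried the highest level, and without it the first change was 0.34 with an adjusted p of 0.0826. The call was also lost without WT_Basal replicate 1 (adjusted p = 0.089) or replicate 3 (0.0546), after GC correction (0.0759) and with the 6 compared libraries alone (0.128). In WT_OL against WT_Basal GC correction called 336 of all genes in place of 1457. KO levels were 63.2, 66.9 and 63.8 CPM untrained, 65.8, 71.0 and 72.6 CPM after original and 75.3, 58.7 and 70.3 CPM after reversal learning, with differences of 0.11 and 0.07 that did not pass (adjusted p = 0.561 and 0.731). *Aldh1l1*, at chr6:90486427-90600203 on the plus strand, shares exonic bases with Gm45901 on its strand and Gm15756 on the other.

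*Aldoc* and *Gfap* were higher on average in trained WT mice, with wide spreads. *Aldoc*, the glycolytic enzyme, was at 755, 909 and 865 CPM in WT_Basal, 1092, 1414 and 846 CPM in WT_OL and 1006, 1283 and 877 CPM in WT_RL. *Gfap*, the intermediate filament protein, was at 395, 502 and 372 CPM, 514, 661 and 443 CPM and 445, 612 and 499 CPM in the same groups. In each trained WT group replicate 2 was the highest, and the groups overlapped. The differences after original learning were 0.38 ± 0.16 for *Aldoc* and 0.34 ± 0.15 for *Gfap* (adjusted p = 0.143 and 0.171, limma), and *Aldoc* was called without WT_OL replicate 3 (0.56, adjusted p = 0.019). That fit called 2496 of all genes in place of 1457. Without WT_OL replicate 2 the differences were 0.19 for *Aldoc* and 0.19 for *Gfap* (adjusted p = 0.488 and 0.524, limma). After reversal learning they were 0.16 and 0.17 without WT_RL replicate 2 (adjusted p = 0.575 and 0.556, limma). In KO mice the differences lay between -0.11 and -0.03 for *Aldoc* and at -0.05 in both trained groups for *Gfap*. *Aldoc* lies on the plus strand at chr11:78322968-78327781 and *Gfap* on the minus strand at chr11:102887336-102900912.

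**Figure D2:**
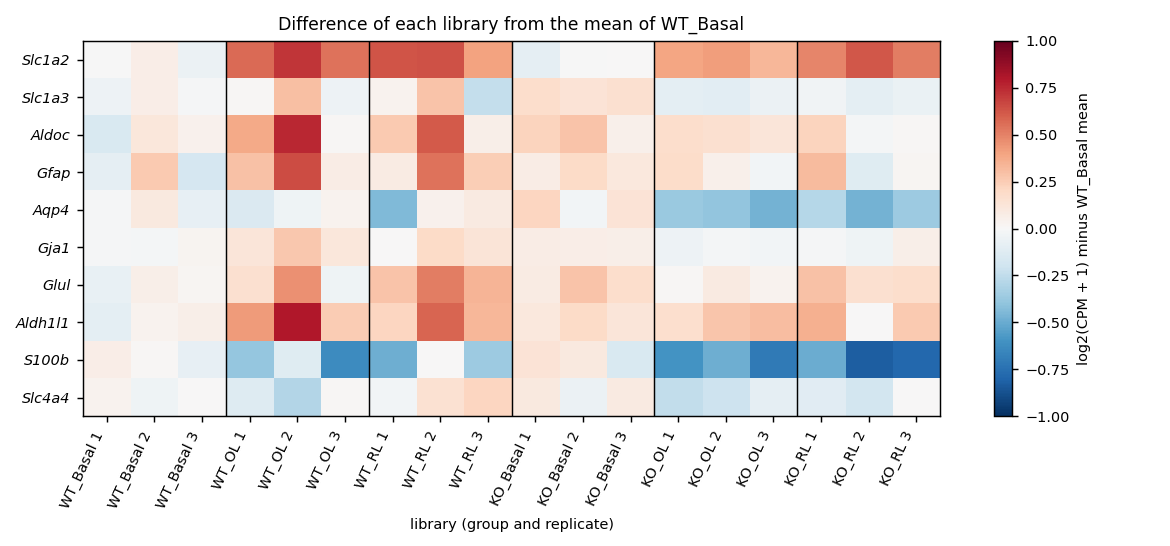
Difference of log2(CPM + 1) of each library from the mean of the 3 WT_Basal mice, for the 10 genes (rows) in the 18 libraries (columns, by group and replicate). Red is above and blue below; *Slc1a2* is red in all trained libraries, *S100b* is blue in trained KO libraries, and WT_OL replicate 2 is red for *Aldoc*, *Gfap*, *Glul* and *Aldh1l1*.

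Read across the members, original learning in WT mice gave 2 genes called higher of 10, *Slc1a2* and *Aldh1l1*, and none lower, where 3.88% of all genes were called higher and 5.62% lower. At an unadjusted p under 0.05 there were 6 of 10 members and 25.9% of all genes. For 4 of the 10 the groups did not overlap, as for 28.3% of all genes. The median difference of the members was 0.18 on the log2 scale, beside -0.0003 for all genes. Without WT_OL replicate 2 the members' median was 0.09, 1 member was called higher, *Slc1a2*, and 1 lower, *S100b*, and 3 had an unadjusted p under 0.05, as had 21.1% of all genes. In KO_OL against KO_Basal 1 member was called higher, *Slc1a2*, and 2 lower, *Aqp4* and *S100b*. There 11.2% of all genes were called higher and 12.3% lower, and 48.8% had no overlap between the groups, as had 6 of the members. An unadjusted p under 0.05 was found for 5 of 10 members and 36.6% of all genes. The members' median was -0.12, beside -0.01 for all genes.

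In WT_RL against WT_Basal 2 members were called higher, *Slc1a2* and *Glul*, and none lower, where 8.28% of all genes were called higher and 7.42% lower. The groups did not overlap for 3 of the 10, as for 34.3% of all genes, and the members' median was 0.20. An unadjusted p under 0.05 was found for 3 of 10 members and 30.3% of all genes. Without WT_RL replicate 2 the median was 0.13 and 1 member was called, *Slc1a2*. In KO_RL against KO_Basal 1 was called higher, *Slc1a2*, and 2 lower, *Aqp4* and *S100b*, where 11.6% of all genes were called higher and 12% lower. The groups did not overlap for 5 of the 10, as for 45.3% of all genes, and the members' median was -0.09. Here 3 of 10 members had an unadjusted p under 0.05, beside 36.6% of all genes. The OL and RL comparisons of a genotype share their untrained mice, and their values are not independent of each other.

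**Figure D3:**
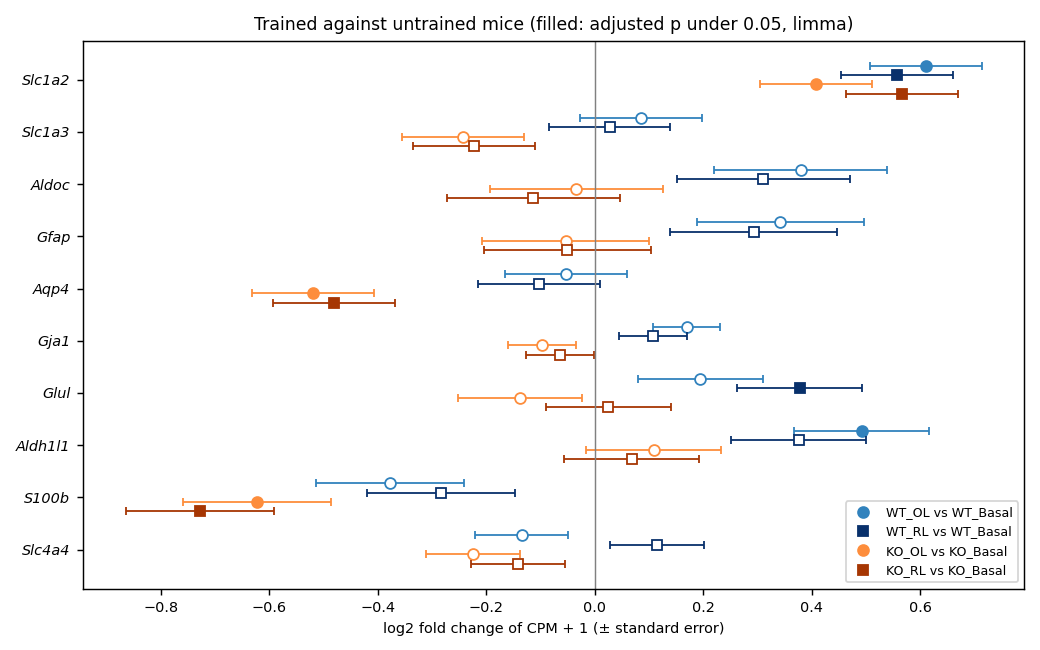
Log2 fold change of CPM + 1 (± standard error, limma) of each astrocyte gene in trained against untrained mice, by genotype (blue WT, orange KO) and task (circles OL, squares RL). Filled symbols have an adjusted p under 0.05; *Slc1a2* is filled in all 4 comparisons and *Aqp4* and *S100b* in the KO comparisons.

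Between reversal and original learning no member was called. In WT_RL against WT_OL 0.261% of all genes were called, and 16.4% had an unadjusted p under 0.05. Of the 10 members 1 did, *Slc4a4*, at 0.25 ± 0.086 (adjusted p = 0.202, limma). It was called without WT_OL replicate 3 (0.32, adjusted p = 0.0268), where 2042 of all genes were called in place of 40. In KO_RL against KO_OL 0.0196% of all genes were called, and 0 members had an unadjusted p under 0.05, beside 4.81% of all genes. *Slc1a2* was higher in all KO_RL mice than in all KO_OL mice, by 0.16 ± 0.10 (adjusted p = 1, limma), and so was *Glul*, by 0.16 ± 0.12 (adjusted p = 1).

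No member was called between untrained KO and WT mice. In KO_Basal against WT_Basal 0.0196% of all genes were called, and 0 members had an unadjusted p under 0.05, beside 4% of all genes. The differences ran from -0.03 for *Slc1a2* to 0.19 for *Aldoc*, and 9 of 10 were above 0. *Slc1a3*, *Gja1*, *Glul* and *Aldh1l1* were higher in every KO_Basal mouse than in every WT_Basal mouse. That is 4 of 10 members without overlap, beside 14.7% of all genes.

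After original learning all 10 members had a lower mean in KO than in WT mice. None was called in KO_OL against WT_OL, where 0.0652% of all genes were, and 3 of 10 had an unadjusted p under 0.05, as had 18% of all genes. These were *Aqp4* at -0.36 ± 0.11 (adjusted p = 0.169, limma), *Gja1* at -0.20 ± 0.062 (0.166) and *Slc1a2* at -0.23 ± 0.10 (0.258). In these and in *Slc1a3* every KO_OL mouse lay below every WT_OL mouse, 4 of 10 members beside 16.5% of all genes. With a weight for each library, which gave WT_OL replicate 2 a weight of 0.208 and replicate 1 a weight of 7.03, the 3 were called (adjusted p = 0.0113, 0.00897 and 0.0419), as were 4190 genes in all in place of 10. *Gja1* was also called without WT_OL replicate 3 (-0.23, adjusted p = 0.0313). The members' median was -0.22, and without WT_OL replicate 2 it was -0.10, with an adjusted p of 0.541 for *Aqp4*, 0.579 for *Gja1* and 0.724 for *Slc1a2* (limma). In KO_OL against WT_OL 7689 of all 15329 genes had a higher mean in KO mice. So had 2 of 44 other astrocyte, 0 of 8 oligodendrocyte, 0 of 7 endothelial and 0 of 6 smooth muscle and pericyte genes. Of 9 neuronal genes 8 had, and of 7 choroid plexus genes 7. The part of these cells was not tested. *Aqp4* is on the minus strand at chr18:15389496-15410982, the chromosome of the targeted *Ccny* (chr18:9312304-9450154). The part of this position in the differences of *Aqp4* between KO and WT mice was not tested.

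After reversal learning the means of all 10 were again lower in KO mice, and again none was called, with 0% of all genes called in KO_RL against WT_RL. The 3 with an unadjusted p under 0.05 were *S100b* at -0.42 ± 0.14 (adjusted p = 0.733, limma), *Slc4a4* at -0.21 ± 0.086 (0.916) and *Aqp4* at -0.27 ± 0.11 (0.954), and 4.93% of all genes had one. Without WT_RL replicate 2 there were 0 members with an unadjusted p under 0.05, and *Slc1a2* and *Slc1a3* had higher means in KO mice. Without WT_RL replicate 1 *Aqp4* was at -0.44 (adjusted p = 0.0438). In KO_RL against WT_RL 7 of 44 other astrocyte, 0 of 8 oligodendrocyte, 1 of 7 endothelial and 6 of 9 neuronal genes had higher means in KO mice. Averaged over the 3 training states, the difference of KO from WT was called for none of the members and for 0.0326% of all genes. It was -0.20 ± 0.079 for *S100b* (adjusted p = 0.519), -0.17 ± 0.065 for *Aqp4* (0.504) and -0.08 ± 0.036 for *Gja1* (0.572), the members with an unadjusted p under 0.05, as had 8.36% of all genes. Without WT_RL replicate 1 the *Aqp4* value was -0.23 (adjusted p = 0.0472). In the same average 8 of 8 oligodendrocyte and 5 of 7 endothelial genes had an unadjusted p under 0.05, with medians of -0.35 and -0.17. Of 9 neuronal genes 0 had one, and none of these genes was called.

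Whether training changed a gene differently in the genotypes was tested as the difference between the KO and the WT change. No member was called, nor was any gene (0%) for the change from Basal to OL, from OL to RL (0%) or from Basal to RL (0%). The limma voom test on the recovered reads likewise called 0 members in these, in the comparisons of KO with WT mice and between RL and OL, while library weights called 3 members for Basal to OL, and 2056 of all genes where equal weights called 0. For Basal to OL the difference was -0.47 ± 0.16 for *Aqp4* and -0.27 ± 0.088 for *Gja1* (adjusted p = 0.388 each, limma) and -0.38 ± 0.18 for *Aldh1l1* (0.396), and these 3 had an unadjusted p under 0.05, as had 12.4% of all genes. For Basal to RL it was -0.38 ± 0.16 for *Aqp4*, -0.44 ± 0.19 for *S100b* and -0.35 ± 0.16 for *Glul* (adjusted p = 0.908 each), the 3 with an unadjusted p under 0.05, as had 4.99% of all genes. Without replicate 2 of the trained WT group, 2 members had one for Basal to OL and 0 for Basal to RL. For OL to RL 0 members had an unadjusted p under 0.05, beside 7.98% of all genes. The fall of *Aqp4* and *S100b*, called in KO and not in WT mice, is therefore not shown to differ between them. The 95% interval of the *Slc1a2* difference between genotypes ran from -0.52 to 0.12 for OL and from -0.31 to 0.33 for RL. These intervals use the residual degrees of freedom of the fit and are wider than those that belong to limma's p.

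Other astrocyte genes were read in 3 lists. Of 20 genes for glutamate, glutamine, GABA and ion handling 1 was called higher in WT_OL, *Gjb6* for connexin 30 (0.48 ± 0.11, adjusted p = 0.011, limma). In WT_RL 5 were higher and 1 lower, among them *Gjb6* (0.80), *Slc7a11* for the cystine-glutamate exchanger (-0.65) and *Atp1b2* for a sodium pump subunit (0.46). In KO_OL 3 were higher and 2 lower, among them *Trpv4* for a calcium-permeable channel that choroid plexus epithelium also makes (2.28), *Slc7a11* (-0.51), *Dag1* for dystroglycan (0.34) and *Kcnj16* for a potassium channel subunit (-0.41). In KO_RL 3 were higher and 3 lower, among them *Slc7a11* (-0.55), *Kcnj16* (-0.55) and *Dag1* (0.34). The median difference of the list was 0.18 in WT_OL, 0.17 in WT_RL, 0.01 in KO_OL and 0.03 in KO_RL. It was 0.17 without WT_OL replicate 2 and 0.15 without WT_RL replicate 2, where 3 were called higher and 1 lower.

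Of 44 further astrocyte genes 4 were higher in WT_OL and none lower, *Fgfr3* for a growth factor receptor (0.37), *Bcan* for brevican (0.42), *Lcat* (0.56) and *Tril* (0.26). In WT_RL 7 were higher and 1 lower, among them *Htra1* for a secreted protease (0.78), *Etnppl* for an enzyme of phospholipid metabolism (1.47) and *Fgfr3* (0.42). In KO_OL 1 was higher, the transcription factor *Nfia* (0.60), and 4 lower, *Atp13a4* (-0.47), *F3* for tissue factor (-0.46), *Fabp7* for a fatty acid binding protein (-0.67) and *Cldn10* (-0.48). In KO_RL 3 were higher, among them *Nfia* (0.71), and 5 lower, among them *Fabp7* (-0.93). The shares of all genes called higher were 3.88%, 8.28%, 11.2% and 11.6% in WT_OL, WT_RL, KO_OL and KO_RL. Those called lower were 5.62%, 7.42%, 12.3% and 12%. The medians of the 44 genes were 0.20, 0.19, -0.05 and -0.05 in the same order, and those of the 10 members 0.18, 0.20, -0.12 and -0.09. Without WT_OL replicate 2 the median of the 44 was 0.07 and none of them was called in WT_OL by limma, with 5 at an unadjusted p under 0.05. Without WT_RL replicate 2 it was 0.10, and 4 were called higher and 1 lower in WT_RL. The list of reactive astrocyte genes had medians of 0.10, 0.08, 0.20 and 0.28.

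**Figure D4:**
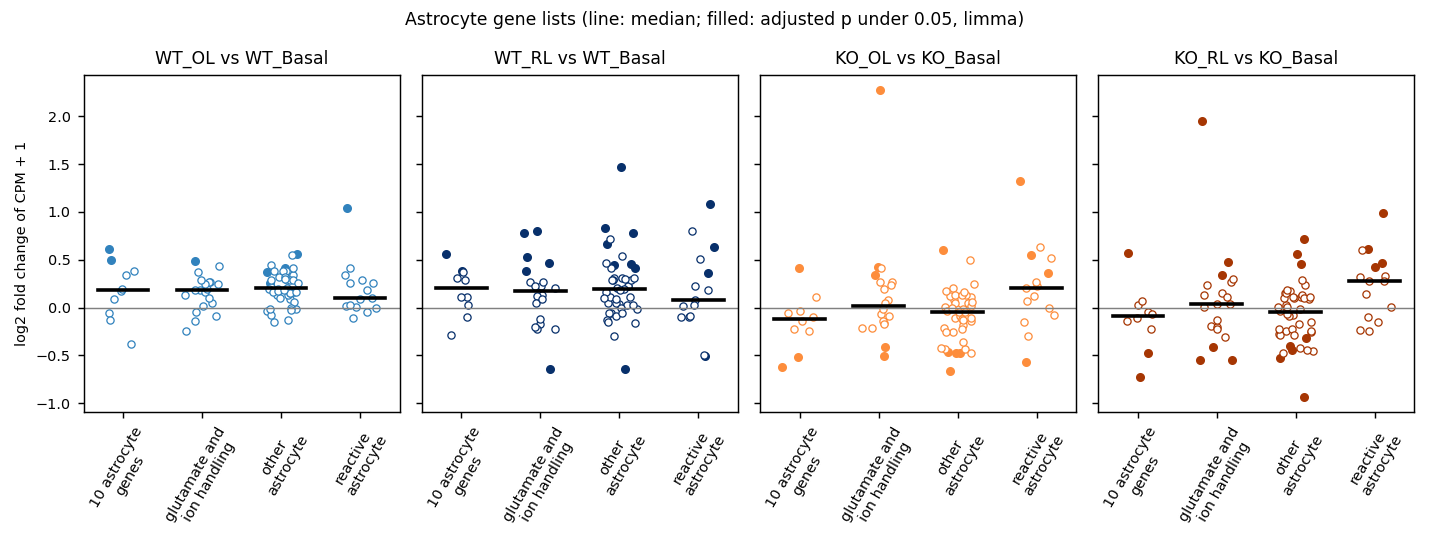
Log2 fold change of CPM + 1 of each gene (points) in trained against untrained mice, for the 10 astrocyte genes and 3 other astrocyte lists, with the median of each list as a black line and genes with an adjusted p under 0.05 filled. The medians of the 10 genes and of the 2 lists beside them lie above 0 in both WT comparisons, and that of the 10 genes lies below 0 in both KO comparisons.

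Markers of other cells were read beside these results. As a background, 3.88% of all genes were called higher and 5.62% lower in WT_OL, and 8.28% and 7.42% in WT_RL. For KO_OL the shares were 11.2% and 12.3%, and for KO_RL 11.6% and 12%. In KO mice all 7 choroid plexus genes were higher in KO_OL and 6 of 7 in KO_RL than in KO_Basal, with medians of 3.32 and 2.92, and their summed level was 46.5 to 664.6 CPM in KO_Basal, 2399 to 4633 in KO_OL and 1328 to 5008 in KO_RL. None was called in the WT comparisons, where the sums were 854.2 to 4337 CPM in WT_Basal, 1869 to 3285 in WT_OL and 42.2 to 8393 in WT_RL. Of 7 endothelial genes 1 was higher in WT_OL and 1 lower in WT_RL. Their summed level was 265.1 to 279.7 CPM in WT_Basal, 265.6 to 291.7 in WT_OL and 223.7 to 293.4 in WT_RL. In each KO comparison 3 were lower, and the summed level was 251.9 to 282.1 CPM in KO_Basal, 198 to 227.9 in KO_OL and 222.6 to 238.8 in KO_RL. The falls of *Aqp4* and *S100b* were in the same KO comparisons. Of 8 microglial genes 2 were lower in KO_OL and 3 in KO_RL, and in WT 2 were higher and 1 lower in each comparison. Without replicate 2 of the trained group none was higher in either, and 1 was lower in WT_OL and 2 in WT_RL. Of 9 neuronal genes 2 were higher and 1 lower in KO_OL, and 1 was higher and 1 lower in KO_RL. In each WT comparison 1 was higher, with sums of 7008 to 7915 CPM in WT_Basal and 5558 to 7229 CPM in WT_OL, where the lowest was replicate 2. In WT_OL 2 of the 9 had a difference above 0, the median was -0.29 and 4 had an unadjusted p under 0.05, beside 25.9% of all genes. Without that library the median was -0.08 and none was called, with 1 at an unadjusted p under 0.05 (limma). Of 8 oligodendrocyte genes 0 were called in any of the 4 comparisons by limma, and at an unadjusted p under 0.05 there were 2 in WT_RL and 0 in the others. The part of these cells in the members' results was not tested.

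How far members varied together within groups depended on replicate 2 of WT_OL and of WT_RL. With group means removed, the 45 pairs of members had a median Pearson's r of 0.55 over the 18 libraries, from -0.72 for *Slc1a2* with *Slc4a4* to 0.90 for *Glul* with *Aldh1l1*, and 36 were above 0. Over the 16 libraries without these replicates the median was 0.13, from -0.79 to 0.74, and 28 were above 0. The libraries share the tissue's cell composition and the normalization, so these values are descriptions. Against the mean of the other 9 members, *Aldh1l1* had an r of 0.89 and *Gfap* of 0.87, while *Slc1a2* (0.32), *Aqp4* (0.28) and *Slc4a4* (-0.35) had lower values. Without both replicates the values were 0.72 for *Aldh1l1*, 0.81 for *Gfap*, -0.39 for *Slc1a2*, 0.14 for *Aqp4* and -0.19 for *Slc4a4*. *Slc1a2* was closest to *Slc1a3* (0.71), and *Aqp4* and *Slc4a4* to each other (0.55). Over the whole table the 5 genes most like the mean of the members were *Ntsr2* (0.97), *Acsbg1* (0.97), *Mlc1* (0.97), *Ost4* (0.97) and *Timmdc1* (0.97). Without both replicates their values were 0.91, 0.88, 0.89, 0.90 and 0.85. *Ntsr2* encodes a neurotensin receptor and *Mlc1* a membrane protein of astrocytes, and both stand with *Acsbg1* in the list of further astrocyte genes.

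**Figure D5:**
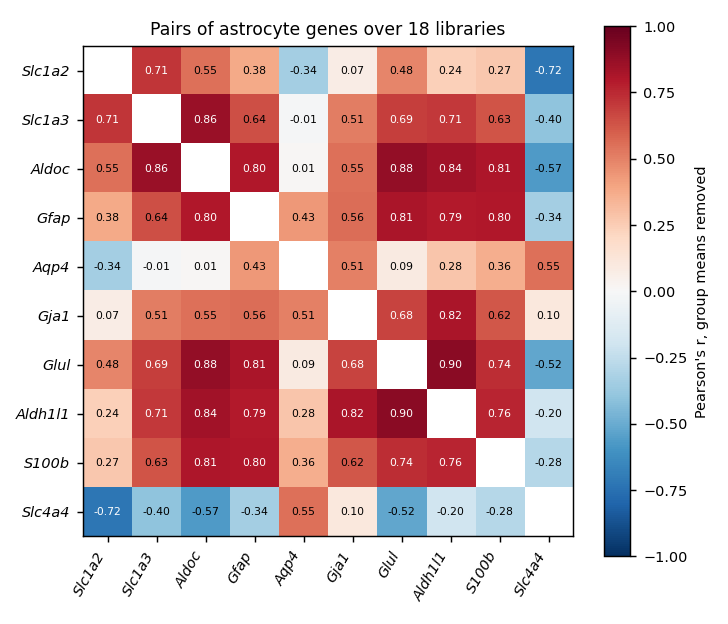
Pearson's r of each pair of astrocyte genes over the 18 libraries after the group means were removed (red positive, blue negative). *Aldoc*, *Gfap*, *Glul*, *Aldh1l1* and *S100b* form a block of high values over all 18, and *Slc4a4* has negative values with *Slc1a2*, *Aldoc* and *Glul*.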

How the data were processed

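Poly(A) RNA from the hippocampus of 18 mice was read in pairs on an Illumina instrument. Per the submitters' processing notes and the methods, the authors used STAR 2.5.1 to align to mm10 and to count per gene, scaled by TMM in edgeR 3.12.1 (R 3.3.0), and deposited 1 table of log2 values. The methods describe CPM floored at 1. The deposited log2 values are log2(CPM + 1) instead: with the log and the added 1 undone, 100% of values fell on whole multiples of what 1 read was worth in their library (tolerance 0.001 of a read), which gave the reads behind them. Their median was 32801079.5. The labels name a stranded kit, and the methods name a kit without saying that it was stranded.

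Groups came from the sample titles. The log2 values were fitted with limma 3.58.1 in R 4.3.3 (lmFit, 1 mean per group, all 18 libraries, eBayes with trend, two-sided), with Benjamini-Hochberg adjustment over the 15329 genes, all above 0 in at least 3 libraries. A gene was called at an adjusted p under 0.05. For 3 mice against 3 an exact permutation test cannot give a p under 0.1. The fit was tested on simulated data. Alternatives were median-of-ratios scaling, the floored scale, a pseudocount of 0.25, a minimum mean of 1 CPM, the compared groups alone, library weights, the replicate number as a block, GC correction, voom on the recovered reads and each library left out. Library weights in the form used, and leaving out replicate 2 of both WT_OL and WT_RL, were chosen after the data were seen. The sources do not say that mice of a group came from separate litters, so the replicates may not be independent. The p-values weigh a difference against the spread between these libraries within groups, estimated over all 6 groups.

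All 10 members are named. From each list at most the 4 genes with the smallest p per comparison are named. The members, the marker lists and the tests were chosen with earlier results of these data known. Positions, lengths and GC content are from GENCODE M21 on GRCm38 (GC for 99.4% of genes), and promoters from RefSeq on GRCm38.p6, with an entry for 9 of 10 members. Figures were drawn with matplotlib.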

Additional observations from a re-analysis of the deposited data

Results flagged for a closer look

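For *Gja1* the change from Basal to OL differed between the genotypes by -0.27 on the log2 scale, KO minus WT (SE 0.088, adjusted p = 0.388, limma). It is given here because all 3 WT_OL mice lay above all WT_Basal mice and all 3 KO_OL mice below all KO_Basal mice. The groups did not overlap for 28.3% of all genes in WT_OL against WT_Basal and for 48.8% in KO_OL against KO_Basal. The unadjusted p of the *Gja1* difference was 0.00796 (limma), and it did not pass over all genes. For this difference 12.4% of all genes had an unadjusted p under 0.05.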

How the results depend on the processing

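The number of members called stayed within 1.5 times the reported count under median-of-ratios scaling, the floored scale, a pseudocount of 0.25, a minimum mean of 1 CPM and voom, in all 13 comparisons. Library weights, added after the data were seen in a gene-by-gene form because the planned form did not converge, gave 6 members in WT_OL against WT_Basal, 5 in KO_OL against KO_Basal, 3 in KO_OL against WT_OL and 3 for the difference between genotypes in OL. The same weights called 4872, 6110, 4190 and 2056 of all genes in these, in place of 1457, 3600, 10 and 0. GC correction, with or without the replicate block, left 1 in WT_OL and 1 in WT_RL against WT_Basal, and 2 in KO_OL against KO_Basal. In WT_OL it called 336 of all genes, or 310 with the block, in place of 1457. In KO_OL it called 2316, or 2395 with the block, in place of 3600. The compared groups alone gave 0 in WT_OL, 1 in WT_RL and 5 in KO_OL against untrained mice. The number of all genes called in that fit is not given, so these counts have no background. Leaving out 1 library gave 1 to 3 in WT_OL and 1 to 3 in WT_RL against WT_Basal, and 0 to 1 in WT_RL against WT_OL, KO_OL against WT_OL, KO_RL against WT_RL and KO against WT averaged over training. With 1 library of the compared groups left out, 629 to 2496 of all genes were called in WT_OL against WT_Basal. In WT_RL against WT_OL 0 to 2042 were. *Slc1a2* was called in 16, 17, 16 and 16 of its alternatives (of 17, 17, 16 and 16) in WT_OL, WT_RL, KO_OL and KO_RL against untrained mice, and *S100b* in 16 of 16 in each KO comparison.

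Signs turned for uncalled members only. Without replicate 2 of both WT_OL and WT_RL, *Slc1a3* was at -0.023 in WT_OL and -0.10 in WT_RL against WT_Basal and at 0.036 in KO_RL against WT_RL, and *Slc1a2* at 0.021 in the last. GC correction, with and without the block, put *Aqp4* at 0.16 in WT_OL and 0.10 in WT_RL, and *Glul* at -0.0059 and *Aldh1l1* at -0.011 in KO_RL. Library weights put *Glul* at -0.0005 in KO_RL. With 1 library left out, the ranges were -0.023 to 0.16 (*Slc1a3*, WT_OL), -0.10 to 0.16 (*Slc1a3*, WT_RL), -0.20 to 0.065 (*Aqp4*, WT_RL), -0.10 to 0.015 (*Aldoc*, KO_OL), -0.17 to 0.047 (*Gfap*, KO_RL), -0.024 to 0.076 (*Glul*, KO_RL) and -0.0074 to 0.17 (*Aldh1l1*, KO_RL). They were -0.059 to 0.0060 (*Slc1a2*) and -0.028 to 0.12 (*S100b*) in KO_Basal against WT_Basal, -0.13 to 0.027 (*Slc4a4*) in KO_OL against WT_OL, and -0.10 to 0.021 (*Slc1a2*) and -0.23 to 0.036 (*Slc1a3*) in KO_RL against WT_RL. The cause was not tested.

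Samples with the same replicate number did not deviate together: the median correlation of 45 such pairs was -0.02, and 12 exceeded 0.1. With the replicate number as a block 2 members were called in WT_OL, 2 in WT_RL, 4 in KO_OL (*Slc4a4* added, adjusted p = 0.039) and 3 in KO_RL against untrained mice. The block called 1377 of all genes in WT_OL and 3620 in KO_OL, in place of 1457 and 3600. Libraries held 29248557 to 37915576 reads on listed genes, and what depth limits in these results was not tested. In the authors' mapping statistics every KO_Basal library had a lower mapping rate than every trained KO library. Every WT_Basal library was likewise below every WT_RL library, while WT_Basal and WT_OL overlapped. The part of mapping rate in the differences between trained and untrained mice was not tested.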

Other observations

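Of 15 genes of reactive astrocytes, 1 was called higher and none lower in WT_OL, 3 higher and 1 lower in WT_RL, 3 higher and 1 lower in KO_OL, and 4 higher and none lower in KO_RL. Of all genes 3.88%, 8.28%, 11.2% and 11.6% were called higher in the same order, and 5.62%, 7.42%, 12.3% and 12% lower. Without WT_OL replicate 2 none of the 15 was called in WT_OL (limma), with 2 at an unadjusted p under 0.05. *Hspb1*, a small heat shock protein, rose in WT_OL (1.04 ± 0.27, adjusted p = 0.0223, limma), WT_RL (1.09, adjusted p = 0.0128), KO_OL (1.33, adjusted p = 0.00238) and KO_RL (0.99, adjusted p = 0.0145). *Serpina3n*, a secreted protease inhibitor, and the transcription factor *Stat3* rose in WT_RL (0.63 and 0.36), KO_OL (0.54 and 0.36) and KO_RL (0.61 and 0.42). *Vim*, an intermediate filament protein as *Gfap* is, rose in KO_RL (0.46). *Aspg* fell in KO_OL (-0.57) and WT_RL (-0.51). The list's median was 0.10 in WT_OL, 0.08 in WT_RL, 0.20 in KO_OL and 0.28 in KO_RL.

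Of 12 genes induced by glucocorticoids, 2 rose in WT_OL, 7 rose and 1 fell in WT_RL, 6 rose in KO_OL, and 9 rose and 1 fell in KO_RL. All-gene shares called higher were 3.88%, 8.28%, 11.2% and 11.6% in the same order, and those called lower 5.62%, 7.42%, 12.3% and 12%. *Tsc22d3*, a leucine zipper protein, rose in all 4 comparisons (0.79, 0.72, 0.55 and 0.79 in the order WT_OL, WT_RL, KO_OL, KO_RL), as did the clock gene *Per1* (0.81, 0.26, 0.75 and 0.38). *Zbtb16* rose in WT_RL (0.87), KO_OL (0.46) and KO_RL (1.33). Their summed level was 494.5 to 533.1 CPM in WT_Basal and 520.9 to 559.3 CPM in KO_Basal, and the lowest trained library was at 610.7 CPM.

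Among the remaining cell types, 0 of 5 genes of oligodendrocyte precursors and 0 of 5 ependymal genes were called in any of these 4 comparisons by limma. At an unadjusted p under 0.05 there was 1 precursor gene in each WT comparison and 1 ependymal gene in KO_OL. In WT_OL 3.88% of all genes were called higher, and 12.3% were called lower in KO_OL and 12% in KO_RL. Of 6 genes of smooth muscle and pericytes 1 was higher in WT_OL, *Pdgfrb* (0.34), and of 5 genes of meningeal fibroblasts 1 was higher in WT_OL, *Col1a1* (0.93), not called without WT_OL replicate 2, 1 lower in KO_OL, *Slc6a13* (-0.96), and 1 lower in KO_RL, *Dcn* (-0.82).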
